A study of Arvicanthis niloticus with 28 samples.

Results

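The angiopoietin and Tie receptor system was followed here through 5 genes in the isolated retinal vessels of 28 Nile rats (Arvicanthis niloticus). The members were chosen by name: the receptors Tek (also called Tie2) and Tie1, the ligands Angpt1 and Angpt2, and the phosphatase Ptprb (VE-PTP). All 5 stand among the 18970 genes of both deposited tables, one of expected read counts and one of TPM (the share of a library's transcripts, scaled per transcript length). Their rows carry the mouse gene identifiers ENSMUSG00000006386 for Tek, ENSMUSG00000033191 for Tie1, ENSMUSG00000022309 for Angpt1, ENSMUSG00000031465 for Angpt2 and ENSMUSG00000020154 for Ptprb. The row of Tek names 3 mouse transcripts and the other rows name 1 each. The tables give no coordinates, so no position in the genome is printed.

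The study asked which transcripts of the retinal vasculature differ just before capillaries are lost. The Nile rat is a diurnal rodent that becomes diabetic on a rich diet, and acellular capillaries, tubes of basement membrane without cells, are an early lesion of diabetic retinopathy. Each library came from the vessels of 1 rat, freed of neurons by osmotic lysis, DNase and washing with water, and was made with the LM-seq protocol from total RNA. The pre-dropout group held 4 rats, all male, with an acellular capillary density of 17.1 to 17.9 per mm2 and a random blood glucose of 57.4 to 443 mg/dL. The normal group held 24 rats, 8 male and 16 female, with a density of 5.90 to 14.5 per mm2 and a glucose of 52 to 422 mg/dL. All 28 rats were wild type and untreated. Glucose exceeded 200 mg/dL in 2 pre-dropout rats (of 4) and 3 normal rats (of 24). Rats of the colony were fed a high-fiber or a high-caloric diet according to the study's methods, but the labels give neither the diet nor the age of a rat.

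Tek is a receptor tyrosine kinase of endothelial cells. Angpt1, secreted mainly by pericytes and other cells around the vessel, activates it and keeps vessels quiescent and tight. Angpt2, made by endothelial cells and stored for release, acts on the same receptor as a context-dependent antagonist, and its rise is a known feature of diabetic retinopathy. Tie1 binds no angiopoietin by itself and modulates Tek in complex with it, and Ptprb is the endothelial phosphatase that removes phosphate from Tek.

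Library totals lay between 153111 and 10029207 expected counts, with 2 libraries under 1000000, both of normal rats (T410F and T448M). Where a gene had no count, counting error still allows 3 counts, equal to 0.299 to 19.6 CPM over the libraries (CPM are counts scaled to a library size of 1e+06). All 12 endothelial markers had a count in every library, as did 8 of the 9 pericyte markers in the tables, so the labelled tissue carried its defining genes. The summed level of the endothelial markers was 6986 to 12204 CPM in pre-dropout rats and 4052 to 12761 CPM in normal rats, and Cldn5, a tight junction protein, made up a median of 31.9% of it. Of the summed pericyte markers, Rgs5 alone made up a median of 73.6% (61.7 to 82.8% over the libraries). Rod photoreceptor markers summed to 203 to 810 CPM in pre-dropout rats and 174 to 4559 CPM in normal rats, so neural RNA remained after washing. Markers of platelets (4 of 5 listed genes in the tables) summed to 52.3 to 99.96 CPM in pre-dropout rats and 0 to 100.04 CPM in normal rats, and those of erythrocytes (2 of 4) summed to 269 to 1987 CPM in pre-dropout rats and 15.7 to 2243 CPM in normal rats. The part of these other cells in the results was not tested. In 5 libraries of normal rats more than 500 of the 7071 abundant genes (a mean of at least 20 CPM) were listed at 0. By the transcript lengths implied by counts and TPM, the libraries also fell into 3 sets: set 1 held 2 pre-dropout and 7 normal rats, set 2 held 2 pre-dropout and 5 normal rats, and set 3 held 12 normal rats. No label names these sets, and they are used here as a technical split. In the pre-dropout group the set goes with glucose, which was 57.4 and 117 mg/dL in set 1 and 278 and 443 mg/dL in set 2, so set and glucose cannot be told apart there.

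Receptors, phosphatase and Angpt2 stood above Angpt1 in the vessels. Per transcript length, Tek stood highest at 403 ± 139 TPM (SD, n = 28 rats), with a range of 185 to 665 TPM. Ptprb followed at 185 ± 82.1 TPM, Tie1 at 144 ± 60.1 TPM, Angpt2 at 126 ± 57.8 TPM and Angpt1 at 35.5 ± 27.3 TPM. By mean TPM, among all 18970 genes, Tek ranked 294, Ptprb 786, Tie1 1028, Angpt2 1201 and Angpt1 3990.

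In TPM, this order had clear steps only at its ends. On the scale of log2(TPM + 1), Tek exceeded Ptprb in 28 of 28 rats, by a mean difference of 1.17 (SD 0.44). Ptprb exceeded Tie1 in 19 of 28 rats, a mean log2 difference of 0.35 with an SD of 0.72. Tie1 exceeded Angpt2 in 15 of 28 rats, a mean difference of 0.21 with an SD of 0.77. Each of these mean differences was smaller than its SD between rats, and neither was tested. Angpt2 exceeded Angpt1 in 27 of 28 rats, by a mean of 2.40 (SD 1.91). The exception was the pre-dropout rat T407M, with 75.9 TPM of Angpt2 and 92.5 TPM of Angpt1. The order of the group means was the same in pre-dropout and in normal rats. The effective length of a transcript, the number of positions from which a fragment can start, was shortest for Angpt1 among the 5 and was 3.08 times as long for Angpt2, so counts set the ligands further apart than TPM does. Mean CPM was 567 for Tek, 432 for Ptprb, 233 for Tie1, 228 for Angpt2 and 21.6 for Angpt1. The size of each step thus depends on the unit.

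Variation between rats was low for the receptors and high for Angpt1. The coefficient of variation of the CPM was 0.370 for Tek, 0.404 for Tie1, 0.428 for Ptprb, 0.440 for Angpt2 and 0.834 for Angpt1. For reference, 8057 genes had at least 10 counts in at least 20 libraries. Of these genes, 6.62% had a lower coefficient than Tek, 10.7% than Tie1, 14.2% than Ptprb, 16.1% than Angpt2 and 78.6% than Angpt1. Every library held at least 10 counts of Tek, Tie1, Angpt2 and Ptprb, whereas Angpt1 reached 10 counts in 23 of 28.

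Tek showed no difference between the groups that passed the test. In pre-dropout rats it stood at 665 CPM in T353M, 691 CPM in T389M, 561 CPM in T391M and 532 CPM in T407M, and in normal rats at 240 to 1058 CPM with a median of 588 CPM. The 4 pre-dropout rats lay inside the normal range, 2 above and 2 below the normal median. The log2 fold change was 0.13 (standard error 0.31, 95% interval -0.50 to 0.77), with a p above 0.99 in the quasi-likelihood test of edgeR after Benjamini-Hochberg adjustment over 13800 genes. In this comparison edgeR called 0 genes (0.0%) under the limits of an adjusted p of 0.05 and a 2-fold change, where DESeq2 called 5 and limma-voom 4. At an unadjusted p under 0.05 stood 394 genes (2.86%), 27 higher and 367 lower in pre-dropout rats, and none of the 5 members was among them.

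Tie1 stood at 203, 366, 280 and 176 CPM in the pre-dropout rats T353M, T389M, T391M and T407M, against 70.4 to 427 CPM in normal rats with a median of 245 CPM. Its groups overlapped throughout, and the log2 fold change was 0.17 (standard error 0.35, interval -0.54 to 0.88, edgeR's unadjusted p = 0.637).

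Ptprb had the largest difference for its error. The pre-dropout rats held 881 CPM in T353M, 385 CPM in T389M, 382 CPM in T391M and 631 CPM in T407M, and the normal rats 87.6 to 711 CPM with a median of 375 CPM. The normal median was exceeded in 4 of 4 pre-dropout rats, and T353M exceeded all normal rats. The log2 fold change was 0.48 (standard error 0.33, interval -0.19 to 1.15, edgeR's unadjusted p = 0.157 and adjusted p above 0.99), so the difference did not pass the test, and the interval still holds a doubling. Without T353M (replicate 1) it was 0.20 (interval -0.61 to 1.01). The 2 pre-dropout rats of high level belong to set 1 and have low glucose, and the 2 near the normal median belong to set 2 and have high glucose. Within set 1 the log2 fold change was 0.95 (interval -0.12 to 2.02) and within set 2 it was 0.23 (interval -0.98 to 1.43).

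Angpt1 varied more within each group than between them. Pre-dropout rats held 37.1 CPM (156 counts) in T353M, 9.46 CPM (41 counts) in T389M, 3.87 CPM (13 counts) in T391M and 65.8 CPM (152 counts) in T407M. The highest value of all 28 rats thus came from the pre-dropout group, and so did that of T391M, which exceeded only 4 normal rats. In normal rats the level was 0 to 50.9 CPM with a median of 16.2 CPM. The log2 fold change was 0.51 with a standard error of 0.96 and an interval of -1.43 to 2.45 (edgeR's unadjusted p = 0.598), an interval that holds both a 2-fold decrease and a 4-fold increase.

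The low end of Angpt1 was set by 4 libraries, all of set 3. The gene was listed at 0 in T446M and T448M and had 1 count in T420F and in T424M, although T424M was the deepest library with 10029207 counts. In T446M, a count of 0 of 4290913 allows up to 0.699 CPM, and in T448M, of 934248, up to 3.21 CPM. Abundant genes listed at 0 numbered 73 in T446M, 1395 in T448M, 649 in T420F and 465 in T424M, and their part in the Angpt1 values was not tested. In the other 24 libraries Angpt1 had at least 3 counts. Over the sets it had a median of 51.4 CPM in the pre-dropout and 24.2 CPM in the normal rats of set 1, 6.67 CPM in the pre-dropout and 11.8 CPM in the normal rats of set 2, and 15.7 CPM in the normal rats of set 3. The log2 fold change was 0.75 (interval -0.68 to 2.18) within set 1 and -1.41 (interval -4.38 to 1.56) within set 2, and it was -0.23 without the pre-dropout rat T407M (replicate 4).

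**Figure D1:**
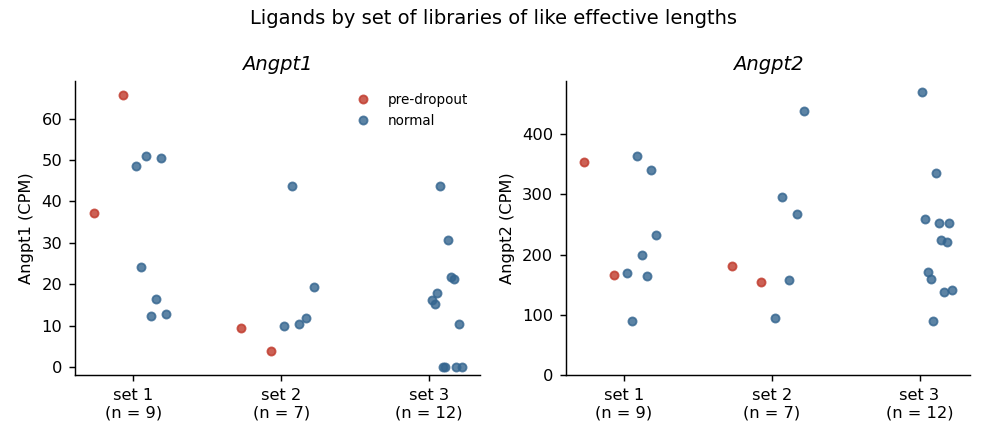
CPM of Angpt1 (left) and Angpt2 (right) in each rat, by set of libraries of like effective transcript lengths (9, 7 and 12 libraries), pre-dropout in red and normal in blue, on linear axes. The 4 rats with 0 or 1 count of Angpt1 are all in set 3, and Angpt2 spans 89.6 to 469 CPM in that set.

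Angpt2 stood at 354 CPM in the pre-dropout rat T353M and at 182, 154 and 166 CPM in T389M, T391M and T407M, against 89.6 to 469 CPM in normal rats with a median of 223 CPM. Thus 1 pre-dropout rat was above the normal median and 3 were below it. The log2 fold change was -0.11 (standard error 0.36, interval -0.83 to 0.62, edgeR's unadjusted p = 0.768). The upper bound lies under a doubling. Its sign rests on single rats, as it was -0.43 (interval -1.30 to 0.44) without T353M (replicate 1), the one high rat of the group, 0.05 without T391M (replicate 3), 0.03 without T407M and 0.23 within set 1.

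**Figure D2:**
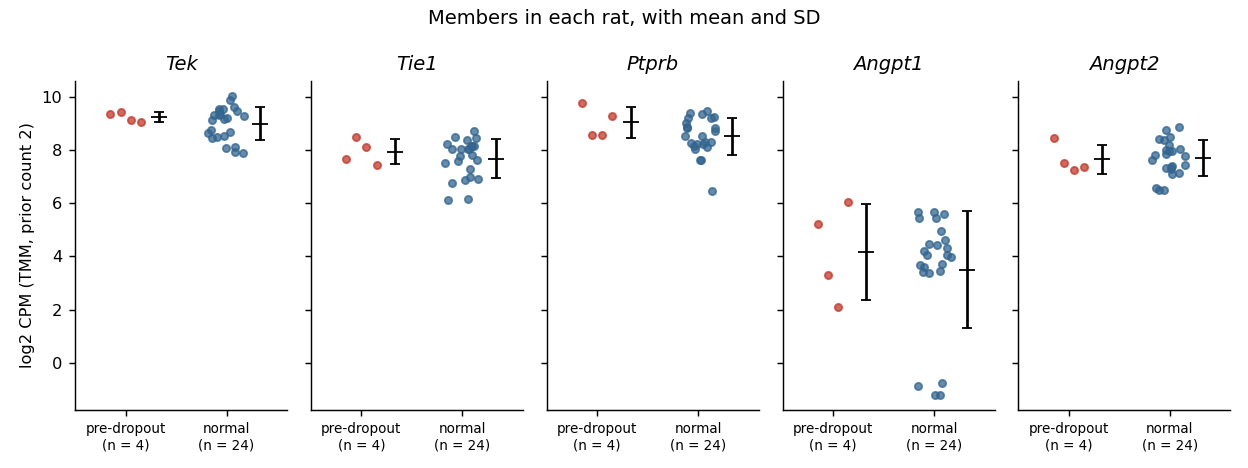
Log2 CPM of each member in the 4 pre-dropout rats (red, left) and the 24 normal rats (blue, right), 1 point per rat, with the mean and SD of each group in black. The groups overlap for all 5 genes, and the 4 lowest points of Angpt1 are the libraries with 0 or 1 count.

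The estimates for Tek, Tie1 and Ptprb were larger under limma-voom with sample weights, a test that gives libraries of unusual spread less say. It gave log2 fold changes of 0.60 for Tek (unadjusted p = 0.0166), 0.69 for Tie1 (p = 0.0215) and 0.65 for Ptprb (p = 0.0139). None was called, with adjusted p values of 0.396 to 0.434. With sex as a covariate the fold change of Tek was -0.21, and among males alone it was -0.23, so its sign depends on how sex is treated.

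The balance of the members within a library was read as ratios, taken from log2 CPM with a prior count of 2. The ratio of Angpt2 to Angpt1 was 9.44 in T353M, 18.4 in T389M, 35.9 in T391M and 2.52 in T407M among pre-dropout rats, and 3.48 to 28.4 in the 20 normal rats with more than 1 count of Angpt1. The lowest ratio of all rats was that of T407M. In the other 4 normal rats the prior count sets the ratio, at 155 to 622. Their counts of Angpt2 and Angpt1 were 600 and 1 in T420F, 3084 and 1 in T424M, 950 and 0 in T446M and 139 and 0 in T448M. With 3 counts as the floor of a library, counts of Angpt2 were at least 317-fold those of Angpt1 in T446M and at least 46.3-fold in T448M. These bounds are not scaled for effective length, which was 3.08 times as long for Angpt2. The median over all 24 normal rats was 12.4. With these 4 ratios as the prior count gives them, the mean log2 ratio was 3.49 ± 1.64 in pre-dropout rats (SD, n = 4) and 4.20 ± 2.15 in normal rats (SD, n = 24), a difference of -0.72 (exact permutation test over all splits of 28 rats, two-sided, p = 0.574, adjusted p = 0.861 over 3 ratios). Ranks of the count ratios, with these 4 rats tied at the top, averaged 13.5 in pre-dropout rats and 14.7 in normal rats, with a two-sided exact permutation p of 0.813 (adjusted 0.97). Without T407M the log2 difference was 0.0014, and in sets 1 and 2 alone it was 0.20, so it has no stable sign.

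Tie1 stood at 0.405 of Tek in pre-dropout rats and 0.401 of Tek in normal rats by the geometric mean of the CPM ratio, a log2 difference of 0.01 (exact permutation p = 0.961). The log2 ratio of Ptprb to Tek was -0.19 ± 0.61 in pre-dropout rats (SD, n = 4) and -0.47 ± 0.42 in normal rats (SD, n = 24). This difference of 0.28 had an exact permutation p of 0.245 and an adjusted p of 0.735. Ptprb exceeded Tek in counts in the pre-dropout rats T353M (ratio 1.32) and T407M (1.19), which are the 2 highest ratios of the 28 rats. It also exceeded Tek in the normal rats T399F (1.07), T445F (1.06) and T414F (1.004). In the pre-dropout rats T389M and T391M it was 0.557 and 0.681 of Tek.

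Over all rats, the receptors and the phosphatase followed the endothelial content of the library. Log2 CPM of Tek had a Pearson r of 0.91 with the log2 summed endothelial markers over 28 rats (Spearman rho 0.86, permutation p = 1e-05 for each, the smallest that 100000 permutations can give). For Ptprb r was 0.82 (rho 0.81, permutation p = 1e-05 for each) and for Tie1 0.75 (rho 0.74, permutation p = 2e-05 and 5e-05). Without the 2 rats farthest from the median marker level r was 0.88 for Tek, 0.79 for Ptprb and 0.76 for Tie1, and within the 3 sets it was 0.88 to 0.96 for Tek, 0.79 to 0.90 for Ptprb and 0.71 to 0.89 for Tie1. After adjustment over the 15 relations of 5 members with 3 marker lists, the p of Pearson's r was 5e-05 for Tek and Ptprb and 7.5e-05 for Tie1. Both values of a pair come from one library and share its scaling. In bulk vessels, fewer endothelial cells and less RNA per cell cannot be told apart.

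The ligands followed that content less. For Angpt2 r was 0.40 with the endothelial markers (rho 0.45, permutation p = 0.0337 and 0.0171, adjusted 0.0505 and 0.0256) and 0.48 with the pericyte markers (rho 0.51, permutation p = 0.0098 and 0.00567, adjusted 0.0184 and 0.0106). Without the 2 farthest rats these were 0.47 and 0.40. Within sets 1, 2 and 3 the r of Angpt2 with pericyte markers was 0.60, 0.90 and 0.36. For Angpt1 r was -0.18 with endothelial markers (permutation p = 0.374) and 0.03 with pericyte markers (permutation p = 0.871, rho 0.35 with p = 0.0706), and neither passed the test. Within sets 1, 2 and 3 the r of Angpt1 with pericyte markers was 0.62, 0.72 and -0.19. Set 3 holds the 4 libraries with 0 or 1 count of Angpt1, and their part in the r over all rats was not tested. The differences between these correlations were not tested.

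The summed pericyte markers, mostly Rgs5, also moved with the receptor and the phosphatase. Their r was 0.59 for Tek (permutation p = 0.00107, adjusted 0.00268) and 0.62 for Ptprb (permutation p = 0.00042, adjusted 0.00126). Without the 2 farthest rats these r were 0.70 and 0.72. Within set 2 they were 0.11 and 0.12, against 0.85 and 0.79 in set 1 and 0.71 and 0.91 in set 3. For Tie1 r was 0.35 (rho 0.33, permutation p = 0.0704 and 0.0886, adjusted 0.0880 and 0.111), which did not pass. It was 0.89, -0.24 and 0.55 within sets 1, 2 and 3 and 0.53 without the 2 farthest rats (adjusted permutation p = 0.00924), so the call for Tie1 rests on those rats.

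**Figure D3:**
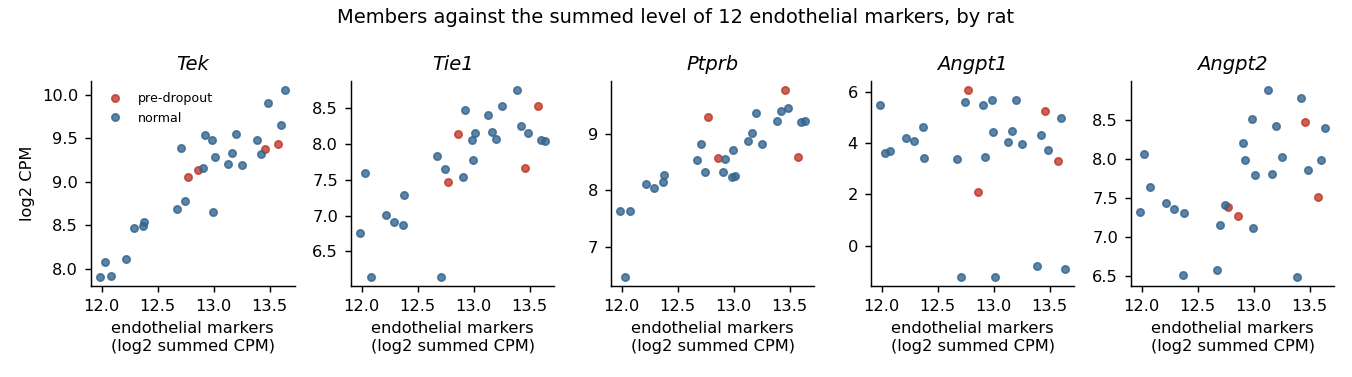
Log2 CPM of each member against the log2 summed CPM of 12 endothelial markers, 1 point per rat, pre-dropout in red and normal in blue, each panel with its own vertical scale. Tek, Tie1 and Ptprb climb along the axis (r of 0.91, 0.75 and 0.82), while Angpt1 scatters across it.

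Expressed relative to the endothelial markers, the spread of Tek between rats shrank. The SD of its log2 CPM was 0.59, and that of the log2 ratio of Tek to the marker sum was 0.24. For Tie1 the SD was 0.69 before and 0.46 after, and for Ptprb 0.70 and 0.41. For Angpt2 the SD stayed at 0.64 in both forms, and for Angpt1 it was 2.13 and 2.27. Relative to the markers, the pre-dropout minus normal difference was -0.07 for Tek, -0.05 for Tie1, 0.22 for Ptprb, -0.36 for Angpt2 and 0.35 for Angpt1 on the log2 scale, given as a description. The summed endothelial markers themselves had a mean log2 difference of 0.31 between pre-dropout and normal rats, and the pericyte markers one of -0.36.

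Rod markers ran against the receptors. The r of Tek with the summed rod markers was -0.74 over 28 rats (rho -0.77, permutation p = 1e-05 and 2e-05, adjusted 5e-05 and 0.0001), -0.74 without the 2 farthest rats, and -0.72, -0.66 and -0.78 within sets 1, 2 and 3. The r of Ptprb was -0.54 (permutation p = 0.00325, adjusted 0.00696) and that of Tie1 -0.43 (p = 0.0244, adjusted 0.0407), which was -0.32 without the 2 farthest rats (permutation p = 0.108). For Tie1 it was -0.63 in libraries of at least 1000000 counts (adjusted permutation p = 0.00148) and -0.41 with each set centred (adjusted 0.0438). On log2(TPM + 1) it was -0.39 (adjusted permutation p = 0.0634). The normal rat T370M had the most rod RNA, 4559 CPM, and held 360 CPM of Tek and 117 CPM of Tie1. CPM and TPM are shares of a library.

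Among the members themselves, Tek moved with Ptprb (r 0.77, rho 0.73, permutation p = 1e-05 and 3e-05, adjusted 0.0001 and 0.0003 over 10 pairs) and with Tie1 (r 0.66, rho 0.64, permutation p = 0.00022 and 0.00051, adjusted 0.0011 and 0.00255). Without the 2 farthest rats these r were 0.72 and 0.53. Within sets 1, 2 and 3 the r of Tek was 0.80, 0.82 and 0.83 with Ptprb and 0.96, 0.72 and 0.52 with Tie1. Tie1 and Ptprb had an r of 0.45 (permutation p = 0.0157, adjusted 0.0523) and a rho of 0.52 (p = 0.00571, adjusted 0.019). The ligands were not related to each other in a way that passed the test, with an r of 0.23 (permutation p = 0.239), and Angpt1 with Tek (r -0.29, p = 0.139) did not pass either. Angpt2 with Tek had an r of 0.40 (permutation p = 0.035, adjusted 0.0875) and a rho of 0.42 (p = 0.0288, adjusted 0.0719). By rho this pair passed on log2(TPM + 1) (0.49, adjusted permutation p = 0.0225), with each set centred (0.48, adjusted 0.0245) and in libraries of at least 1000000 counts (0.48, adjusted 0.0362), while r passed in none of these.

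Genes of the most similar pattern were sought by Spearman rho of log2 CPM over the 28 rats, among 8056 other genes per member. For Tek they were Pls3 (0.85), Epas1 (0.85), which encodes a hypoxia-inducible factor, Vwf (0.85), the endothelial clotting protein, Mal (0.85) and Rhoa (0.84). For Tie1 they were Jup (0.77), Cldn5 (0.76), Anxa3 (0.76), Clic5 (0.76) and Slc2a1 (0.75), the glucose transporter of barrier endothelium. Ptprb was closest to Abhd2 (0.89), Ptprg (0.88), another receptor phosphatase, Flt1 (0.87), a receptor for VEGF, Actr2 (0.86) and Ltbp4 (0.84). The ligands had less similar neighbours: Ankib1 (0.71), Cntf (0.65), Echs1 (0.64), 3830406C13Rik (0.62) and Slc7a2 (0.61) for Angpt1, and Hmg20b (0.69), Ctsz (0.68), Adprh (0.67), Actc1 (0.67) and Rpl4 (0.67) for Angpt2. With each set centred on its own mean, 3830406C13Rik and Slc7a2 had a rho of 0.42 and 0.43 with Angpt1, ranks 277 and 258.

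Within the normal range, density could be read as a number in 24 rats, with sex as a covariate. Ptprb had a slope of -0.65 on the log2 scale per 5 per mm2 of density (standard error 0.30, interval -1.26 to -0.04), with an unadjusted p of 0.0378 and an adjusted p above 0.99 in edgeR, so it was not called. Of 13677 genes edgeR called 0 (0.0%), as did DESeq2 and limma-voom, and 153 (1.12%) stood at an unadjusted p under 0.05. The lowest Ptprb of all rats was that of T398F (replicate 7), the normal rat of highest density (14.5 per mm2), with 87.6 CPM against 198 CPM in the next lowest rat. Without T398F the slope was -0.41 (interval -1.03 to 0.21, unadjusted p = 0.185), and over all 28 rats it was -0.15 (p = 0.415). Marker lists moved along density too: 10 of 12 endothelial markers had a slope below 0 (median -0.33), as did 9 of 9 pericyte markers (median -0.29), while 10 of 10 rod markers had one above 0 (median 1.30), beside a median of 0.09 over all genes. Of these markers 1 endothelial and 3 rod markers had an unadjusted p under 0.05 in edgeR, and their part in the slope of Ptprb was not tested.

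T398F was picked out after its values were seen. Its endothelial markers summed to 4168 CPM, the second lowest of the rats, its Tek was 269 CPM and its Tie1 192 CPM. Its ratio of Ptprb to Tek, 0.327, was the lowest of all rats, and its ratio of Tie1 to Tek, 0.713, the highest. Its library was deep, with 8352889 counts and 729 counts of Ptprb.

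The other members had slopes on density within their errors. Per 5 per mm2, the slope was -0.26 for Tek (interval -0.82 to 0.30), -0.02 for Tie1 (interval -0.66 to 0.63), 0.09 for Angpt2 (interval -0.53 to 0.71) and 0.36 for Angpt1 (interval -1.46 to 2.18) on the log2 scale, with adjusted p values above 0.99 in edgeR.

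**Figure D4:**
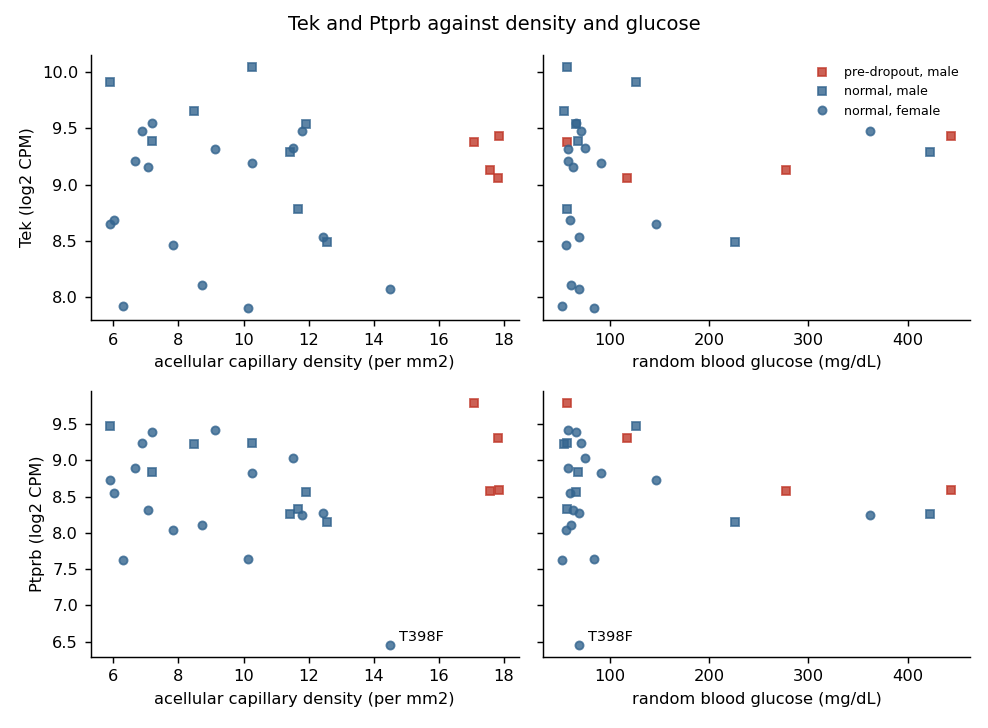
Log2 CPM of Tek (top) and Ptprb (bottom) against acellular capillary density per mm2 (left) and random blood glucose in mg/dL (right), with pre-dropout rats in red, normal rats in blue, squares for males and circles for females. T398F, at a density of 14.5 per mm2, is the lowest point of Ptprb, and the pre-dropout rats above 17 per mm2 lie at or above 8.58.

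Blood glucose showed no relation with the members that passed the test. With sex as a covariate, the slope per 100 mg/dL over 28 rats was 0.0048 for Tek (interval -0.19 to 0.20), 0.12 for Tie1 (interval -0.11 to 0.34), -0.18 for Ptprb (interval -0.41 to 0.05), -0.04 for Angpt2 (interval -0.26 to 0.18) and -0.13 for Angpt1 (interval -0.84 to 0.58) on the log2 scale. Unadjusted p values were 0.125 for Ptprb and 0.3 to 0.96 for the others, and adjusted p values lay above 0.99 in edgeR. Of 13800 genes edgeR called 0 (0.0%) and DESeq2 22, and 525 (3.8%) stood at an unadjusted p under 0.05.

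The 5 rats with glucose above 200 mg/dL were alike in Ptprb and unlike in Angpt1. Ptprb stood at 385 and 382 CPM in the pre-dropout rats T389M and T391M, and at 283, 303 and 305 CPM in the normal rats T370M, T392F and T446M. The other 23 rats ranged from 87.6 to 881 CPM. Angpt1 stood at 9.46 and 3.87 CPM in T389M and T391M and at 24.2, 50.9 and 0 CPM in T370M, T392F and T446M, which covers most of its range. Angpt2 stood at 182 and 154 CPM in the pre-dropout rats and at 90.9, 364 and 221 CPM in these normal rats, and the median over the 5 was 182 CPM, against 224 CPM in the 23 rats of lower glucose.

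All pre-dropout rats were male, so the sexes were compared within the normal group. Tek was 708 ± 238 CPM in males (SD, n = 8) and 485 ± 183 CPM in females (SD, n = 16). The log2 fold change of males against females was 0.63 (standard error 0.26, interval 0.10 to 1.17). Its unadjusted p was 0.0221 and its adjusted p 0.995 in edgeR, so it was not called. All 12 endothelial markers (median 0.36) and 9 of 9 pericyte markers (median 0.54) also had log2 fold changes above 0, 2 and 1 of them at an unadjusted p under 0.05, beside a median of -0.04 over all genes, and their part in the value of Tek was not tested. Males ranged from 360 to 1058 CPM and females from 240 to 746 CPM, and the sexes overlapped. With the set of libraries as a covariate the fold change of Tek was 0.57 (edgeR's unadjusted p = 0.0619). The other log2 fold changes were 0.33 for Ptprb, 0.10 for Tie1, -0.08 for Angpt2 and -0.45 for Angpt1, each with an interval that includes 0. On log2(TPM + 1) in limma, that of Angpt1 was -1.65 (interval -3.27 to -0.04, unadjusted p = 0.0453, adjusted 0.484). Among the rats with 0 or 1 count of Angpt1, T424M, T446M and T448M are male and T420F is female. Their part in this value was not tested. Of 12162 genes, edgeR called 3 (0.0247%), none of them a member, and 533 (4.38%) stood at an unadjusted p under 0.05.

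**Figure D5:**
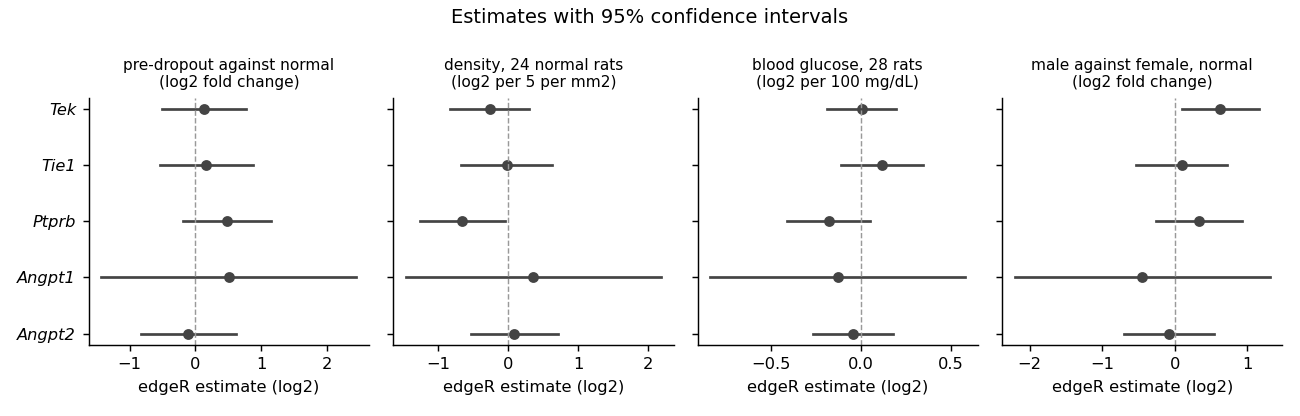
Estimates of edgeR for each member (points) with 95% confidence intervals (lines) in 4 comparisons, in log2 units per comparison, per 5 per mm2 of density or per 100 mg/dL of glucose, with a dashed line at 0. Of the 20 intervals, those of Ptprb on density and of Tek between the sexes leave out 0.

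Of the genes around the Tie receptors, 37 passed the filter on low counts. None of them had an unadjusted p under 0.05 between pre-dropout and normal rats in edgeR. Over all 13800 genes 394 (2.86%) had such a p, a share too small for this count to set the 37 genes apart. Of the other ligands and surface partners, a list of 10 genes that includes integrins which bind angiopoietins and junction proteins that partner the phosphatase, 9 passed. Their median log2 fold change was -0.07, beside -0.13 over all 13800 genes. Itgb1, the integrin beta chain, stood at 825 ± 275 CPM in pre-dropout rats (SD, n = 4) and 751 ± 284 CPM in normal rats (SD, n = 24). Cdh5, the cadherin of endothelial junctions, stood at 293 ± 82.2 CPM in pre-dropout and 259 ± 117 CPM in normal rats, and Kdr, the main VEGF receptor, at 667 ± 162 CPM in pre-dropout and 660 ± 229 CPM in normal rats. Angpt4, the third angiopoietin, was scarce, at 0.795 TPM over 28 rats with a highest value of 10.2 TPM, and did not pass the filter.

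Adaptors and effectors of Tie signaling passed the filter in 17 of 19 cases, with 13 log2 fold changes above 0 and 4 below. Their median was 0.18, beside -0.13 over all genes, and 0 of them had an unadjusted p under 0.05 in edgeR. In the same comparison 10 of 12 endothelial markers were above 0 and 9 of 10 rod markers below, and their part in these values was not tested. The adaptor Nck1 stood at 119 ± 40.3 CPM in pre-dropout rats (SD, n = 4) and 108 ± 75.2 CPM in normal rats (SD, n = 24), and the GTPase Rac1 at 242 ± 28.3 CPM in pre-dropout and 198 ± 86.6 CPM in normal rats. Dok2 and Grb7, adaptors that bind Tek, did not pass the filter.

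FOXO factors are switched off by Tek through AKT, and Angpt2 is among their targets. Of this list of 8 genes 7 passed the filter, with a median log2 fold change of 0.07. Klf2, a flow-responsive factor, stood at 142 ± 68.6 CPM in pre-dropout rats (SD, n = 4) and 135 ± 71.4 CPM in normal rats (SD, n = 24), and Ccng2, a cyclin, at 195 ± 67.8 CPM in pre-dropout and 166 ± 83.3 CPM in normal rats. Foxo4, one of the factors, stood at 19.7 ± 1.93 CPM in pre-dropout and 21.5 ± 10.5 CPM in normal rats. Within the normal rats, 6 of the 7 had a slope on density below 0, with a median of -0.43 per 5 per mm2 beside 0.09 over all genes. In edgeR 0 of them had an unadjusted p under 0.05, beside 1.12% of all genes. The endothelial, pericyte and rod markers that moved along density are given with Ptprb above, and their part in these slopes was not tested.

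Angiopoietin-like genes, which encode related secreted proteins that do not bind Tek, passed the filter in 4 of 6 cases. Their median log2 fold change was 0.50, beside -0.13 over all genes, but the 4 standard errors were 0.755 to 1.285. Angptl1 stood at 47.6 ± 3.46 CPM in pre-dropout rats (SD, n = 4) and 37.6 ± 31.1 CPM in normal rats (SD, n = 24). Angptl2 stood at 25.0 ± 38.9 CPM in pre-dropout and 13.3 ± 16.99 CPM in normal rats, and Angptl4, an inhibitor of lipoprotein lipase, at 11.7 ± 8.40 CPM in pre-dropout and 19.3 ± 15.6 CPM in normal rats. Over the other comparisons 2 genes of the 4 lists had an unadjusted p under 0.05. They were 0 of 36 on density, 1 of 37 on glucose and 1 of 34 between the sexes. Over all genes the shares were 1.12%, 3.8% and 4.38%. Angptl1 had a log2 fold change of 1.32 in males against females (p = 0.0418), and the slope of Itgb3, an integrin chain at 1.86 TPM named after its values were seen, was -1.79 per 100 mg/dL of glucose (p = 0.0343). Both had adjusted p values over 0.99 in edgeR.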

How the data were processed

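The authors deposited expected counts (estimated reads per gene, not scaled between libraries) and TPM of 18970 genes. Both carry mouse symbols and were taken as values of the authors' comparative pipeline, which maps without a Nile rat genome; values from genome mapping were not analysed here, and the aligner is not given in the sources used here. Deposited TPM were used as they stand. The unit of glucose comes from the study's methods. Of the symbols, 14497 stand in the RefSeq annotation of the Nile rat, all 5 members included. Groups came from the density labels, 1 library per rat.

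Expected counts, of which 23.8% were not whole, were rounded and fitted across all genes with edgeR 4.0.16 (R 4.3.3; TMM, filterByExpr with a minimum count of 10, quasi-likelihood F test, Benjamini-Hochberg adjustment). Calls needed an adjusted p below 0.05 and, between groups or sexes, a change of more than 2-fold. EBSeq, named in the study's methods, was not used. CPM are TMM-scaled, and log2 CPM has a prior count of 2. Correlations used 100000 permutations and ratios an exact permutation test, two-sided, in Python 3.11.15. Intervals cover 95%. The 3 sets of libraries were split by effective length, the ratio of counts to TPM, over 1377 genes with at least 20 counts in every library.

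The members and gene lists were chosen with earlier results of these data known. Named genes are the 5 members, the 3 most abundant genes by TPM of each pathway list, and the 5 genes of highest rho with each member. A further item that this rule names is not reported here. Alternatives were DESeq2 1.42.0 and its size factors, limma 3.58.1 (voom with sample weights, or log2 of TPM plus 1), other filters on low counts, covariates and subsets of rats. The edgeR comparison of the groups and an exact permutation test between groups were tried on simulated data.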

Additional observations from a re-analysis of the deposited data

How the results depend on the processing

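Each result was recomputed with other scalings, filters, tests, covariates and subsets of rats. Settings that use the 3 sets of libraries, the libraries with many abundant genes at 0, ranks of ratios or the rat T398F were chosen after seeing the data. Each group difference rests on 4 pre-dropout rats, and the low values of Angpt1 on 0 or 1 count. Each library came from a different rat, so no paired fit was made. The labels give no replicate numbers, and those printed here were assigned within each group. The cause of the changes below was not tested.

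Genes called between the groups numbered 72 without a filter on low counts, 4 with limma-voom, 5 with DESeq2 and 2 within set 2, against 0, and none of them was a member. On density the count was 45 without a filter, against 0. On glucose it was 152 without a filter, 22 with DESeq2 and 2 in normal rats only, against 0. Between the sexes it was 37 with DESeq2 and 6 with limma on TPM, against 3.

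Group differences of members changed sign as follows. Tek was -0.21 with sex, -0.25 with sex and glucose as covariates and -0.23 in males only. Tie1 was -0.0014 with sex and glucose, and -0.051 to 0.35 when each pre-dropout rat was left out in turn. Angpt1 was -0.13 with limma-voom, -0.12 with set as a covariate, -0.10 in sets 1 and 2, -1.41 within set 2, and -0.23 to 0.89 with each rat left out. Angpt2 was 0.088 with limma-voom, 0.0124 with sex, 0.0127 with sex and glucose, 0.23 within set 1, and -0.43 to 0.047 with each rat left out. Ptprb was positive in all 20 alternatives, from 0.20 to 0.95.

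On density, Tie1 was 0.060 with DESeq2's size factors, 0.058 with DESeq2, 0.012 with limma-voom, 0.20 with limma on TPM, 0.053 without T398F and 0.055 over 28 rats. Angpt1 was -0.10 and Angpt2 -0.12 with limma-voom, and Angpt2 was -0.048 without the libraries with over 500 abundant genes at 0. Ptprb was negative in all 12 alternatives, from -0.71 to -0.15, with an unadjusted p under 0.05 in 9.

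On glucose, Tek was -0.0050 without a filter, -0.0097 with limma on TPM, -0.0078 without shallow libraries, -0.045 within set 3, -0.00034 in normal rats only and -0.0056 on log2 glucose. Angpt1 was 0.14 within set 1 and 0.036 in normal rats only, Angpt2 was 0.080 within set 1 and Ptprb was 0.063 within set 2. Between the sexes, Tie1 was -0.044 with DESeq2 and -0.14 with limma on TPM, and Angpt2 was 0.010 without shallow libraries.

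The log2 ratio of Angpt2 to Angpt1 differed by 0.20 in sets 1 and 2, 0.089 with sets centred and -1.28 to 0.0014 with each rat left out. That of Tie1 to Tek differed by -0.00061 in TPM, -0.29 in mean rank, -0.045 without shallow libraries, -0.010 with sets centred and -0.12 to 0.15 with each rat left out. The correlation of Tie1 with Angpt1 was 0.061 with sets centred. Mean levels in TPM stayed within 1 SD under both alternatives.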
